A study of Mus musculus with 6 samples.

Results

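Toll-like receptors were examined as a family of 10 genes, *Tlr1* to *Tlr9* and *Tlr13*, taken by symbol from the 54232 genes quantified in each monocyte library. All 10 were found and all 10 passed the expression filter, so that each entered the comparison of WT with *Ifnar1*-/- monocytes. Irradiated GFP+ recipients had been reconstituted with marrow of 2 donor types, WT with the CD45.1 allele and *Ifnar1*-/- with the CD45.2 allele, mixed in equal parts. The recipients were then immunized for EAE, a mouse model of multiple sclerosis, and received 30000 IU of rIFN-β per day. At disease peak, donor monocytes (GFP-CD45+CD11b+Ly6ChiLy6G-) of both genotypes were sorted from the CNS, giving 3 WT and 3 *Ifnar1*-/- libraries. Both groups came from rIFN-β-treated mice with EAE, and no library of untreated mice was used here. The ages of the mice were not given in the sources used here. Because the CD45 allele followed the donor, the loss of *Ifnar1* and other differences between the donor strains cannot be told apart. With 3 recipients in the study, each carrying both kinds of marrow, a mouse may have given a library to either group, and nothing in the labels ties a library to a mouse. The p-values measure the spread between these libraries.

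Toll-like receptors recognize molecular patterns of microbes and of damaged cells. *Tlr1*, *Tlr2*, *Tlr4*, *Tlr5*, and *Tlr6* encode receptors of the cell surface, which bind lipoproteins, lipopolysaccharide, or flagellin, whereas *Tlr3*, *Tlr7*, *Tlr8*, *Tlr9*, and *Tlr13* encode receptors of endosomes, which bind nucleic acids. The endosomal receptors signal through MyD88 or TRIF to induce inflammatory cytokines and, in certain cell types, type I IFNs, and TLR7 and TLR9 are known for this role in plasmacytoid dendritic cells (pDCs). Type I IFNs signal back through the receptor that contains IFNAR1.

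Libraries held between 4531782 and 7321380 expected counts, the RSEM estimate of reads per gene, and the detection floor of 3 counts was worth 0.427 to 0.638 normalized CPM (counts divided by the TMM-scaled library size). This floor covers counting error alone. The targeted gene, *Ifnar1*, averaged 130 normalized CPM in WT and 107 in *Ifnar1*-/- libraries, and the difference was not significant (log2 fold change 0.28, adjusted p = 0.360, edgeR). Counts over the whole gene cannot tell a deleted exon from an intact one. All 6 monocyte markers were detected, with a summed level of 8002 to 9924 normalized CPM in WT and 9807 to 11049 in *Ifnar1*-/- libraries. *Ly6c2*, which encodes the Ly6C antigen used for sorting, was higher in WT (718 ± 74.6 against 271 ± 83.9 normalized CPM, SD, n = 3 each). It was the 1 marker of the 6 that was called, and 4 of the 6 had a negative log2 fold change. Among these, the chemokine receptor gene *Ccr2* lay lower in every WT library (643 ± 53.7 against 989 ± 248, log2 fold change -0.62, adjusted p = 0.143, edgeR), and *Chil3* had -0.50 (adjusted p = 0.309, edgeR). In bulk libraries, more cells with a transcript and more transcript per cell cannot be told apart.

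Among the 10 Toll-like receptor genes, *Tlr9*, the receptor for unmethylated CpG DNA, was the 1 that was called, and it was higher in WT monocytes. *Tlr3* and *Tlr7*, receptors for double-stranded and single-stranded RNA, were also higher in every WT library than in every *Ifnar1*-/- library, but missed the threshold after adjustment. The other 7 receptors overlapped between the genotypes. A call required a 1.5-fold change and an adjusted p not above 0.05 in the edgeR quasi-likelihood test, and log2 fold changes are WT over *Ifnar1*-/-. The 1 member called higher compares with 1.67% of the 11254 tested genes called higher, and the 0 members called lower compare with 0.462% called lower (0 members with a negative log2 fold change had an unadjusted p under 0.05, and 0 were called lower by DESeq2). All 3 WT libraries lay above all 3 *Ifnar1*-/- libraries for 3 of the 10 members and for 11.1% of all tested genes. The reverse held for 0 members and for 12.2% of all tested genes. The median log2 fold change was 0.07 over the 10 members and -0.01 over all tested genes. The plot of normalized CPM by library shows these patterns.

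**Figure D1:**
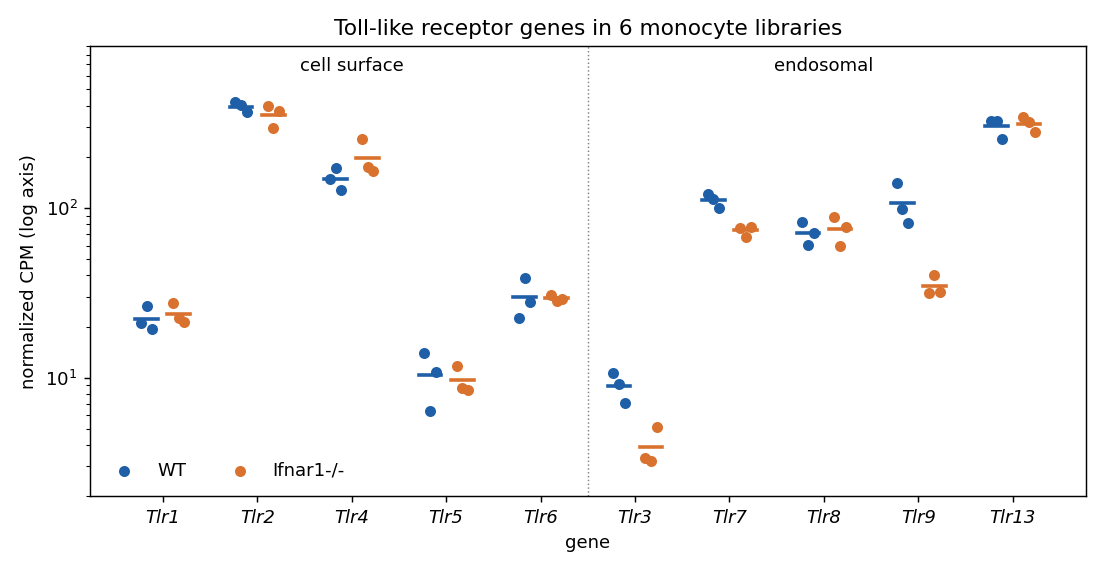
Normalized CPM (log axis) of 10 Toll-like receptor genes, cell-surface receptors on the left and endosomal receptors on the right. Points are libraries (3 WT, 3 *Ifnar1*-/-) and horizontal bars are group means. WT and *Ifnar1*-/- points are separate for *Tlr3*, *Tlr7*, and *Tlr9* and overlap for the other 7 genes.

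*Tlr9* (ENSMUSG00000045322.10, GRCm38 chromosome 9, 106222598 to 106226883, plus strand) is a gene of 2 exons with 1 annotated transcript. It reached 140, 98.0, and 81.5 normalized CPM in WT replicates 1, 2, and 3, and 31.3, 40.2, and 31.8 in *Ifnar1*-/- replicates 1, 2, and 3. The groups did not overlap, and the lowest WT library was above the highest *Ifnar1*-/- library by more than the whole spread of the *Ifnar1*-/- libraries. Behind these values were 413 to 987 counts per WT library and 173 to 237 per *Ifnar1*-/- library. The fold change was 3.10, or 1.63 on the log2 scale (95% interval 1.17 to 2.10, SE 0.21), with an adjusted p of 0.00199 in the edgeR test, which placed *Tlr9* at rank 72 by p-value among the 11254 tested genes. A two-sided exact permutation test gave p = 0.1, and 3 libraries per group cannot give a smaller one. Among WT libraries, library 1 was the highest in normalized CPM. In the authors' TPM values, which divide by transcript length and are scaled to the same total per library, the 3 WT libraries were close together at 30.3, 30.6, and 25.5, and the *Ifnar1*-/- libraries had 8.24, 12.3, and 8.44. RSEM assigned *Tlr9* the same transcript length, 3478 bases, in every library, so the length of *Tlr9* itself adds no difference to its TPM. TPM still carries a scale common to all genes of a library. *Tlr2*, also of constant length (3014 bases), had in WT library 1 its highest normalized CPM of the WT group, 419, and its lowest TPM of that group, 105. *Tlr9* was called under each of the 18 alternative settings, with log2 fold changes from 1.31 to 1.82 and adjusted p-values of at most 0.0241. Among these settings, adjusted p alone kept the main fit, so it could not undo the call.

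*Tlr7* (ENSMUSG00000044583.13, chromosome X, 167304929 to 167330558, minus strand) encodes a receptor for single-stranded RNA. The WT libraries had 121, 113, and 99.9 normalized CPM, compared with 76.4, 67.8, and 77.0 in the *Ifnar1*-/- group. Both groups were narrow, with a coefficient of variation of 9.43% in WT and 7.00% in *Ifnar1*-/- libraries, and they did not overlap. The fold change was 1.51, or 0.59 on the log2 scale (95% interval 0.28 to 0.90, SE 0.14). In the edgeR test the unadjusted p was 0.00154 and the adjusted p was 0.0620. Under DESeq2, the test named in the study's methods, the adjusted p was 0.0118 and *Tlr7* was called, as it was without a filter on low counts (0.0196) and with offsets for GC content and length (0.0342, and 0.0414 with the replicate block). Over the 18 alternatives its log2 fold change stayed between 0.52 and 0.69.

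*Tlr3* (ENSMUSG00000031639.12, chromosome 8, 45395665 to 45411080, minus strand) encodes the receptor for double-stranded RNA, which signals through TRIF alone. Its normalized CPM were 10.7, 9.14, and 7.11 in WT and 3.36, 3.22, and 5.15 in *Ifnar1*-/- libraries. All WT values were above all *Ifnar1*-/- values, on low counts of 75, 43, and 36 against 22, 19, and 28. The fold change was 2.31, or 1.21 on the log2 scale (95% interval 0.57 to 1.85, SE 0.29). In the edgeR test the unadjusted p was 0.00168 and the adjusted p was 0.0657. *Tlr3* was called under DESeq2 (adjusted p = 0.0440) and without a filter on low counts (adjusted p = 0.00462). In TPM the groups overlapped, with 5.34, 2.40, and 5.67 in WT and 2.29, 3.00, and 3.81 in *Ifnar1*-/- libraries. The low WT value is that of library 2, for which RSEM gave *Tlr3* an average length of 4096 bases against 1266 to 1609 bases in the other 5 libraries. The deposited length of a gene is an average over its transcripts, weighted by their estimated levels. On log2(TPM + 0.1), the log2 fold change of *Tlr3* was 0.48 (adjusted p = 0.882 from limma). An antisense gene, *Gm45542*, overlaps *Tlr3* on the plus strand, with 238 of the 5561 windows of 75 bases in *Tlr3* (4.28%) shared in the antisense direction, and the strand setting of the counting was not given in the sources used here.

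*Tlr8* and *Tlr13* complete the endosomal group, and neither differed beyond the spread of its libraries. *Tlr8*, a paralog of *Tlr7*, had 82.4, 60.4, and 71.1 normalized CPM in WT and 88.9, 59.3, and 77.4 in *Ifnar1*-/- libraries, and the log2 fold change was -0.08 (95% interval -0.48 to 0.33, adjusted p = 0.870 from edgeR). *Tlr13*, a mouse receptor for bacterial ribosomal RNA, had 323, 327, and 256 in WT and 342, 320, and 280 in *Ifnar1*-/- libraries, with a log2 fold change of -0.06 (95% interval -0.41 to 0.29, adjusted p = 0.893). Both intervals lie below the log2 fold change of *Tlr9*. The sign of these small differences was not stable. That of *Tlr8* turned positive with GC content and length offsets, and those of *Tlr8* and *Tlr13* each turned positive when 1 of certain libraries was left out. Within the endosomal group the log2 fold changes thus ran from -0.08 to 1.63, with a median of 0.59. An unadjusted p under 0.05 was found for 3 of the 5, all higher in WT, and for 2006 of the 11254 tested genes (17.8%).

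*Tlr7* and *Tlr8* lie on the same strand of chromosome X, 40.6 kb apart, and can be compared within each library. The ratio of *Tlr7* to *Tlr8* in normalized CPM was 1.47, 1.87, and 1.41 in WT and 0.859, 1.14, and 0.995 in *Ifnar1*-/- libraries. Every WT ratio was above every *Ifnar1*-/- ratio. These ratios reuse the *Tlr7* and *Tlr8* values given above, so they describe the difference and add no separate evidence. In TPM, the ratios were 1.13, 1.57, and 0.938 in WT and 0.641, 0.988, and 0.745 in *Ifnar1*-/- libraries, which overlapped.

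The 5 cell-surface receptors showed no call by edgeR or DESeq2, and 0 of 5 had an unadjusted p under 0.05, against the 17.8% of all tested genes. With 5 genes a list, the surface and endosomal counts were not tested against each other. Their log2 fold changes ran from -0.41 to 0.16, with a median of 0.01. *Tlr2*, the shared chain of the lipoprotein receptors, had 419, 401, and 366 normalized CPM in WT and 396, 296, and 373 in *Ifnar1*-/- libraries (log2 fold change 0.16, 95% interval -0.20 to 0.51, adjusted p = 0.653 from edgeR). *Tlr4*, the receptor for lipopolysaccharide, had 149, 171, and 127 in WT and 253, 174, and 166 in *Ifnar1*-/- libraries. It was the member with the lowest log2 fold change, -0.41 (SE 0.19, 95% interval -0.84 to 0.02, adjusted p = 0.299), and *Ifnar1*-/- library 1 was far above the other libraries. Without that library the value moved to -0.17, and over all 18 alternatives it lay between -0.50 and -0.17. *Tlr5*, the flagellin receptor, was low, with 13.9, 6.38, and 10.9 in WT and 11.8, 8.64, and 8.46 in *Ifnar1*-/- libraries (log2 fold change 0.13, 95% interval -0.51 to 0.77, adjusted p = 0.862). With 30 to 98 counts per library, its interval was the widest of the surface receptors.

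*Tlr1* and *Tlr6* each pair with *Tlr2* in the protein complex, and they lie 18.5 kb apart on the minus strand of chromosome 5. They also share sequence: of the windows of 75 bases (the read length) in their transcripts, 340 of 3307 in *Tlr1* (10.3%) and 340 of 3677 in *Tlr6* (9.25%) occur in the other gene. The longest identical run was 229 bases inside the coding sequence, at chr5:64925537-64925765 in *Tlr1* (coding bases 1468 to 1696) and chr5:64953828-64954056 in *Tlr6* (coding bases 1507 to 1735), and is shown, 5' to 3' on the coding strand of GRCm38, because reads from it cannot be placed in 1 gene.
Tlr1 and Tlr6: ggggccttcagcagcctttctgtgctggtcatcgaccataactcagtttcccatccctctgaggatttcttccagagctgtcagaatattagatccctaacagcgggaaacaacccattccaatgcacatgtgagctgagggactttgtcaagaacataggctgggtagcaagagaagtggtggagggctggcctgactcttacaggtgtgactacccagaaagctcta
RSEM divides such reads between the genes. The deposited counts of *Tlr1* and *Tlr6* were fractional in each library, and their sums were whole numbers, 305, 307, and 239 in WT and 381, 298, and 274 in *Ifnar1*-/- libraries. The single-gene values are therefore less certain than those of the other members. *Tlr1* had 20.9, 26.6, and 19.4 normalized CPM in WT and 27.5, 22.4, and 21.3 in *Ifnar1*-/- libraries (log2 fold change -0.10, 95% interval -0.50 to 0.31). *Tlr6* had 22.5, 38.7, and 27.8 in WT and 30.7, 28.1, and 29.1 in *Ifnar1*-/- libraries (log2 fold change 0.0094, 95% interval -0.43 to 0.45). Summing both genes gave 43.4, 65.2, and 47.2 in WT and 58.2, 50.5, and 50.4 in *Ifnar1*-/- libraries, with a log2 fold change of -0.03 (95% interval -0.42 to 0.35, adjusted p = 0.946, edgeR). The sum overlapped between genotypes, as did each gene alone. The sum was tested as an alternative added after the data were seen.

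**Figure D2:**
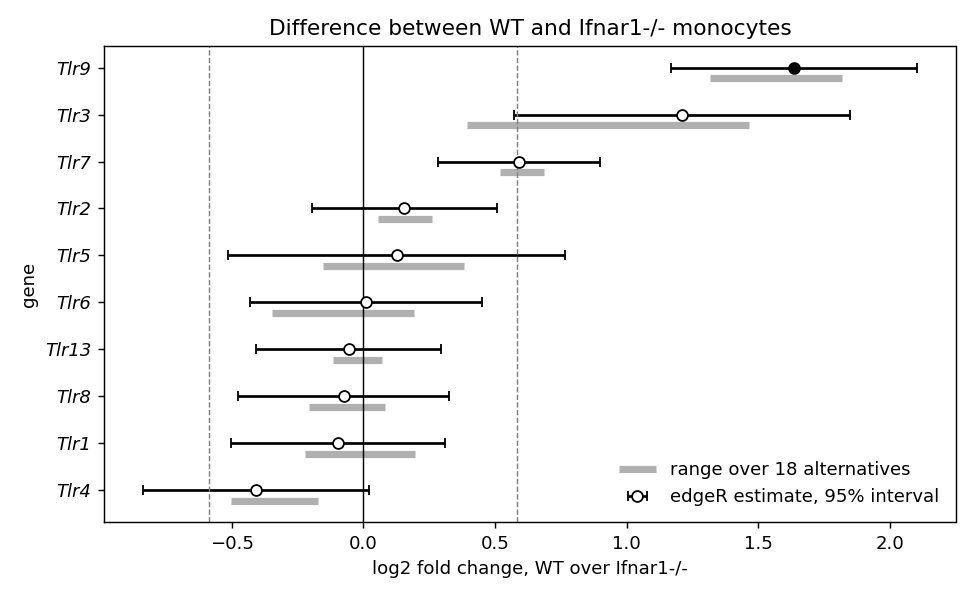
Log2 fold change of WT over *Ifnar1*-/- (x axis) for each Toll-like receptor gene (y axis). Circles are edgeR estimates with 95% intervals (filled, called), gray bars span the 18 alternative settings, and dashed lines mark a fold change of 1.5. *Tlr9* at 1.63 is the only filled circle, the intervals of *Tlr3* and *Tlr7* lie above 0, and the other 7 intervals include 0.

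Levels of different genes were compared per length, in TPM averaged over the 6 libraries. *Tlr2* was the highest at 121 (105 to 146), followed by *Tlr13* at 76.1 (61.2 to 89.8) and *Tlr4* at 48.9 (29.97 to 65.1). *Tlr8* at 31.6, *Tlr7* at 30.8, *Tlr9* at 19.2, *Tlr6* at 15.4, and *Tlr1* at 10.4 lay in the middle, and *Tlr3* at 3.75 and *Tlr5* at 3.60 were the lowest. Within this order, *Tlr2* and *Tlr13* had ranges over the libraries that did not overlap, as had *Tlr1* and *Tlr3*, and all other neighbours overlapped. The order of group means was the same in both genotypes for *Tlr2*, *Tlr13*, *Tlr4*, and *Tlr1*. *Tlr9* had a higher TPM than *Tlr6* in 3 of 3 WT libraries and in 0 of 3 *Ifnar1*-/- libraries, though the *Tlr6* length that enters its TPM differed up to 1.90-fold between libraries. *Tlr9* took 7.84 ± 1.65% (SD, n = 3) of the summed TPM of the 10 genes in WT and 2.80 ± 0.736% in *Ifnar1*-/- libraries. *Tlr4* took 11.1 ± 1.26% in WT and 15.98 ± 1.48% in *Ifnar1*-/- libraries, and *Tlr2* took 34.2 ± 1.12% and 32.9 ± 2.52%. The 5 endosomal receptors together took 47.0 ± 3.65% in WT and 42.7 ± 1.39% in *Ifnar1*-/- libraries. The plot of TPM by gene shows the order.

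**Figure D3:**
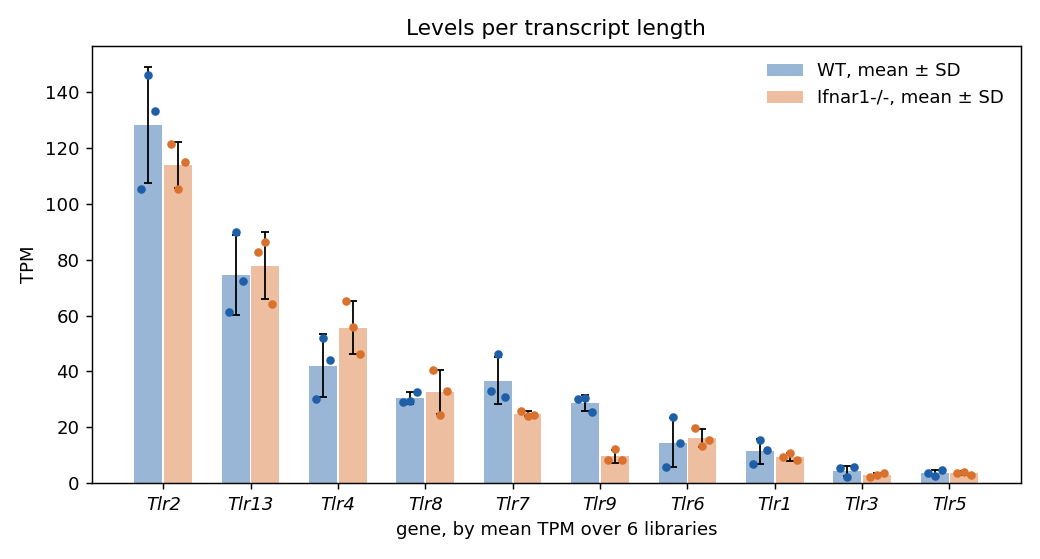
TPM (linear axis) of each Toll-like receptor gene, ordered by the mean over 6 libraries. Bars are group means, error bars are SD (n = 3), and points are libraries. *Tlr2* is the highest at a mean of 121 over all libraries, and *Tlr9* shows 28.8 ± 2.87 in WT against 9.65 ± 2.28 in *Ifnar1*-/- libraries.

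*Tlr9* was set beside the other endosomal receptors by its ratio to each of them within a library, as log2 of TPM + 0.1. *Tlr9* had the largest log2 fold change of the family in these same libraries. A positive mean difference was therefore fixed in advance, and the ratios describe its size and add no separate evidence. The difference of this log2 ratio, WT minus *Ifnar1*-/-, was 1.66 over *Tlr8*, 1.65 over *Tlr13*, 1.11 over *Tlr3*, and 1.05 over *Tlr7*. The ratio of *Tlr9* to *Tlr8* averaged 0.944 in WT and 0.299 in *Ifnar1*-/- libraries, and that of *Tlr9* to *Tlr13* averaged 0.391 and 0.124. In TPM, every WT library had a higher ratio than every *Ifnar1*-/- library in all 4 comparisons, the narrowest being *Tlr9* over *Tlr3*, where the lowest WT log2 ratio was 2.15 and the highest *Ifnar1*-/- log2 ratio was 2.00. For *Tlr3* this separation was absent in normalized CPM, where the ratio of *Tlr9* to *Tlr3* was 13.2, 10.7, and 11.5 in WT and 9.32, 12.5, and 6.18 in *Ifnar1*-/- libraries. These overlapped, and the log2 ratio, on normalized CPM + 0.5, differed by 0.48 (two-sided exact permutation p = 0.3). The ratios over *Tlr7*, *Tlr8*, and *Tlr13* stayed separate in normalized CPM, with differences of 1.00, 1.66, and 1.65. This scale was added after the data were seen. In TPM, each two-sided exact permutation test gave p = 0.1 (0.1 after Benjamini-Hochberg adjustment over the 4 ratios), the smallest value this design allows, so no ratio could pass 0.05. Without WT library 2, whose *Tlr3* length stood apart, the difference over *Tlr3* was 0.67. The 4 ratios share the *Tlr9* values and are not independent.

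**Figure D4:**
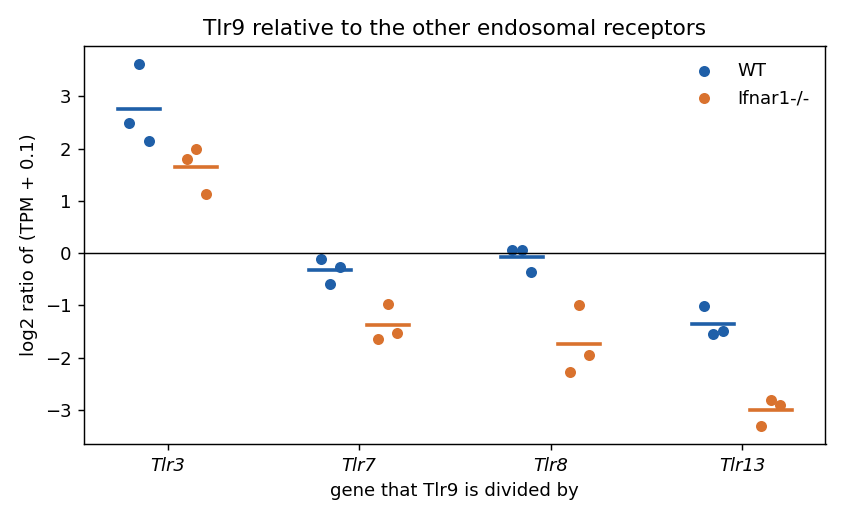
Log2 ratio of *Tlr9* to each other endosomal receptor gene within a library, from TPM + 0.1 (y axis), against the gene it is divided by (x axis). Points are libraries and horizontal bars are group means. On this TPM scale WT points lie above *Ifnar1*-/- points for all 4 genes, with the narrowest gap, 2.15 against 2.00, for *Tlr3*, where the ratios in normalized CPM overlap. *Tlr9* had the largest log2 fold change of the family in these libraries, so higher group means in WT were fixed in advance.

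Sequence before the start sites of the members was read for 2 elements of type I and type II IFN responses, the core of the ISRE (GAAANNGAA, bound by STAT and IRF complexes) and the GAS element (TTCNNNGAA, bound by STAT dimers), on both strands of the 250 bases before each RefSeq start site in GRCm38.p6. Of 32851 such windows of all genes, 7.13% held the ISRE core and 7.02% held GAS. RefSeq windows were found for 8 of the 10 members, *Tlr1* and *Tlr6* with 2 each, and *Tlr4* and *Tlr7* had no entry. The windows of *Tlr9*, the called gene, and of *Tlr8* and *Tlr6*, which hold the ISRE core, are shown on the strand of the gene with matches in capitals. The *Tlr9* and *Tlr8* windows precede the GENCODE start, whereas this *Tlr6* window lies inside the gene, before a RefSeq start 931 bases downstream of the GENCODE start. The windows are chr9:106222348-106222597, chrX:167264330-167264579, and chr5:64959167-64959416.
Tlr9: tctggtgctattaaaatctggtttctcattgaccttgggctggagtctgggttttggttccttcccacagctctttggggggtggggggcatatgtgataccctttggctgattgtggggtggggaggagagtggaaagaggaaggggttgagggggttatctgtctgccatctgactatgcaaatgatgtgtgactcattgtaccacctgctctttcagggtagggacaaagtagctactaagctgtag
Tlr8: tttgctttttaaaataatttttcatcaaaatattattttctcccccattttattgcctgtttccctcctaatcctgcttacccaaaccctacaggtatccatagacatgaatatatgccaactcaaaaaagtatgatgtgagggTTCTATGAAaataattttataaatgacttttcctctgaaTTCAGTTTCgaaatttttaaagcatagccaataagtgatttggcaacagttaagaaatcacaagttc
Tlr6: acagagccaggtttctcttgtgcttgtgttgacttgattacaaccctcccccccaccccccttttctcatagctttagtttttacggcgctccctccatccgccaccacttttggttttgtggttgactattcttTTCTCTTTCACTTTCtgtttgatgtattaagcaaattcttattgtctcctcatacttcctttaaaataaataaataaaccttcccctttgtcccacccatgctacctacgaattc
No match was found for *Tlr9*. *Tlr8* held the ISRE core as TTCAGTTTC, 67 bases before the start site, and GAS as TTCTATGAA, 106 bases before it. *Tlr6* held the ISRE core as TTCTCTTTC and TTCACTTTC, 115 and 109 bases before the start site of 1 of its windows, and these matches share 3 bases. A *Tlr1* window with 211 of its 250 bases in GENCODE exons, before a RefSeq start 864 bases downstream of the GENCODE start, held GAS as TTCATCGAA, 228 bases before that RefSeq start. *Tlr2*, *Tlr3*, *Tlr5*, and *Tlr13* held neither. The *Tlr3* window lies before a RefSeq start 700 bases downstream of the GENCODE start, with 178 of its 250 bases in GENCODE exons. Of the *Tlr2* and *Tlr13* windows, 159 and 71 bases lie in GENCODE exons. A match of letters describes this window only, and a window without one says nothing of binding elsewhere.

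Endosomal receptors depend on proteins that fold them, escort them, and cut them, and surface receptors on co-receptors that present ligand. Of 22 genes of receptor handling and ligand access, all were tested and 0 were called in the edgeR test (2 called by DESeq2). An unadjusted p under 0.05 was found for 5 of the 22 (22.7%), 3 higher and 2 lower in WT, close to the 17.8% of all tested genes. Their median log2 fold change was 0.22, against -0.01 over all tested genes, with a range from -0.43 to 0.72. Of the 22, 16 were positive and 6 negative, and of all 11254 tested genes, 5429 were positive and 5825 negative. Fold changes correlated with GC content over genes (Spearman rho 0.373), and the part of GC content in this median was not tested. *Unc93b1*, which escorts nucleic-acid-sensing receptors to endolysosomes, averaged 602 ± 85.3 in WT and 487 ± 62.3 normalized CPM in *Ifnar1*-/- libraries (SD, n = 3 each), a log2 fold change of 0.31 (adjusted p = 0.372, edgeR). The groups overlapped. The lipopolysaccharide co-receptor *Cd14* had 379 ± 91.2 and 340 ± 60.5 (adjusted p = 0.730), and *Ly96*, which encodes MD-2, the partner of TLR4, had 4.15 ± 0.670 and 3.45 ± 1.23 (adjusted p = 0.739). Named after their values were seen, *Lgmn* and *Ctsb* encode endolysosomal proteases and were the 2 genes that DESeq2 called. *Lgmn* had 558, 382, and 330 normalized CPM in WT and 242, 268, and 260 in *Ifnar1*-/- libraries, and *Ctsb* had 1885, 1216, and 1325 against 961, 949, and 1038. Neither overlapped between genotypes, and their edgeR log2 fold changes were 0.72 (SE 0.20, adjusted p = 0.101) and 0.59 (SE 0.19, adjusted p = 0.155). The remaining higher gene with an unadjusted p under 0.05 was *Cnpy3*, a folding cofactor of the receptors (log2 fold change 0.40, adjusted p = 0.246, edgeR). Its groups overlapped. Cathepsin S (*Ctss*) also lay higher in every WT library (0.27, adjusted p = 0.492, edgeR). Both were named after their values were seen. *Hmgb1*, a nuclear protein that binds DNA, and *Rnaset2b*, a lysosomal RNase, also named after their values were seen, lay lower in every WT library. *Hmgb1* averaged 119 ± 4.07 in WT and 160 ± 4.92 in *Ifnar1*-/- libraries (log2 fold change -0.43, adjusted p = 0.126, edgeR), and *Rnaset2b* averaged 69.8 ± 10.4 and 91.8 ± 8.34 (-0.40, adjusted p = 0.216). *Rnaset2b* has a near-identical copy, *Rnaset2a*, and reads may be split between them.

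Among 16 genes of signaling downstream of the receptors (adaptors, kinases, ubiquitin ligases, inhibitors, and transcription factors), 15 were tested. No adaptor, kinase, ubiquitin ligase, or inhibitor was called, and 1 gene was called higher (1.67% over all tested genes), *Irf7*, a transcription factor that drives IFN-α genes after TLR7 and TLR9 signaling. WT libraries averaged 509 ± 184 and *Ifnar1*-/- libraries 30.1 ± 3.75 normalized CPM (SD, n = 3 each), and the median over the 15 genes was a log2 fold change of 0.24. The plot of log2 fold changes by gene group shows both lists beside all tested genes.

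**Figure D5:**
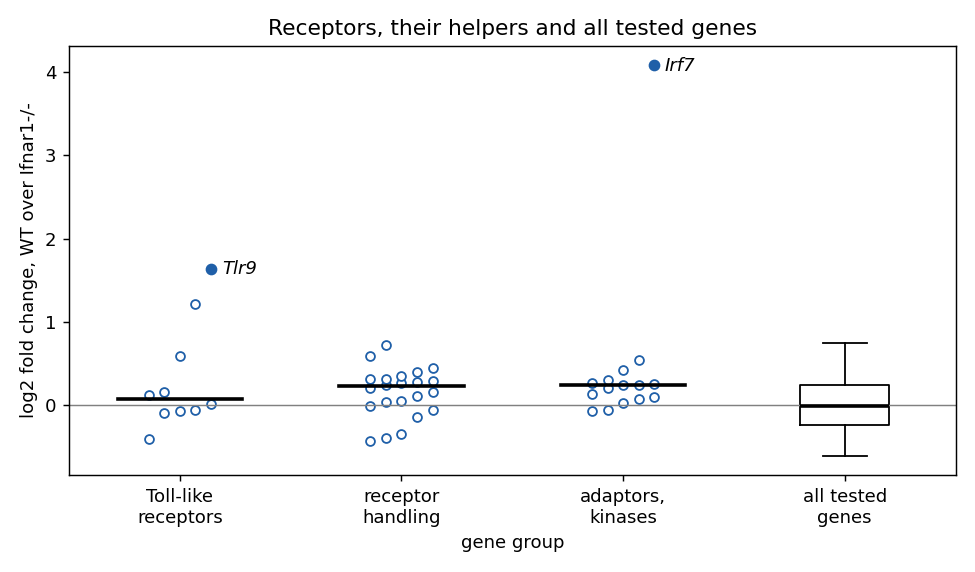
Log2 fold change of WT over *Ifnar1*-/- (y axis) for the 10 Toll-like receptor genes, 22 receptor handling genes, 15 tested signaling genes (labelled adaptors, kinases), and all 11254 tested genes. Points are genes (filled, called), bars are medians of 0.07, 0.22, and 0.24, and the box spans the quartiles of all tested genes with whiskers at the 5th and 95th percentiles. *Tlr9* and *Irf7* are the filled points.

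Because TLR7 and TLR9 are also expressed by pDCs and B cells, markers of other cell types were read beside the *Tlr9* values. Of 7 pDC markers, 1 was tested, *Tcf4*, at 55.3 ± 10.6 normalized CPM in WT and 41.9 ± 8.16 in *Ifnar1*-/- libraries (adjusted p = 0.290 from edgeR). The summed pDC markers ranged from 55.1 to 72.1 in WT and from 37.7 to 53.9 in *Ifnar1*-/- libraries, and 5 of the 7 were at 0 in some libraries. *Siglech*, listed here as a pDC marker, had 1.37 ± 0.566 in WT and 0.561 ± 0.492 in *Ifnar1*-/- libraries. The study also reported Siglec-H on CNS monocytes of rIFN-β-treated mice, so its level does not single out pDCs. The pDC sums did not overlap between genotypes, by a margin of 55.1 against 53.9, and *Tcf4*, whose own values overlapped, made up 87.5% to 94.8% of each sum. *Pacsin1*, not tested, was the pDC marker that lay higher in every WT library, on 12, 8, and 8 counts against 0, 4, and 2. The other pDC markers overlapped. The B cell markers *Pax5* and *Ebf1* were at 0 in all libraries. *Cd79b*, which encodes a chain of the B cell receptor, averaged 1.48 ± 0.092 in WT and 0.634 ± 0.309 normalized CPM in *Ifnar1*-/- libraries, without overlap. *Cd79b* was not tested and rested on 11, 7, and 7 counts against 2, 4, and 5, near the floor of 3 counts. Of all tested genes, 11.1% lay higher in every WT library. Of 6 conventional dendritic cell markers, 2 were tested and 0 called, with sums of 20.3 to 28.9 in WT and 13.4 to 23.5 in *Ifnar1*-/- libraries. Among those not tested, *Itgae* and *Xcr1* were higher in every WT library in normalized CPM. Their counts were low, 13, 8, and 8 against 0, 1, and 3 for *Itgae*, and 5, 1, and 2 against 1, 0, and 0 for *Xcr1*. The remaining markers of this list overlapped. Summed T cell markers also lay higher in every WT library than in every *Ifnar1*-/- library. Their sum was 16.8 to 40.8 in WT and 6.78 to 15.1 in *Ifnar1*-/- libraries, and all 5 tested markers had a positive log2 fold change with an unadjusted p under 0.05, though 0 were called after adjustment in edgeR. Neutrophil markers summed to 184 to 672 and 280 to 597, and microglia markers to 34.2 to 43.7 and 42.0 to 45.4, with 0 called in either list. The neutrophil sum was highest in replicate 3 of both genotypes, 672 in WT and 597 in *Ifnar1*-/-. The part of other cells in the *Tlr9*, *Tlr3*, and *Tlr7* differences was not tested.

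Outside the family, the tested genes whose pattern over the 6 libraries was most like that of *Tlr9* were *Zcchc2*, *Zbp1*, and *Siglec1*, with a Pearson r of 0.9997, 0.996, and 0.996 on log2(normalized CPM + 0.5). *Zbp1* encodes a nucleic acid sensor and *Siglec1* the macrophage lectin CD169. They had log2 fold changes of 1.01, 1.47, and 3.02. These were the highest of many, since 207 tested genes had an r of at least 0.95 with *Tlr9*, and with 2 groups of libraries that lie apart, a high r needs little beyond the group difference.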

How the data were processed

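RNA-seq data of 3 WT and 3 *Ifnar1*-/- libraries of CNS monocytes, sorted from BM chimera mice with EAE that received rIFN-β, were analyzed. Groups followed the *Ifnar1* genotype given in the sample characteristics. Paired-end reads of 75 bp were mapped to GRCm38 and quantified by the authors, and the submitters' processing notes name STAR 2.6.0c and RSEM 1.2.31. The labels and the study's methods name different stranded library kits, and the strand setting of the counting was not given in the sources used here. The authors' expected counts are RSEM estimates that need not be whole and are not normalized. The deposited TPM values were scaled by the authors for transcript length and to the same total per library. Symbols came from GENCODE M21, which matched 54165 of 54232 gene identifiers and left 67 unmatched.

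Expected counts were rounded, normalized by TMM, filtered by filterByExpr (minimum count 10), and tested with the quasi-likelihood test of edgeR 4.0.16 in R 4.3.3, with Benjamini-Hochberg adjustment over all 11254 tested genes. Of all genes, 21265 had any count. Library totals were 4531782 to 7321380, and counting error limits genes near the floor of 3 counts. Single genes were also tested by two-sided exact permutation of log2(normalized CPM + 0.5). Levels between genes were compared in TPM. Named genes were all members, called genes of the 2 pathway lists with *Unc93b1*, *Cd14*, and *Ly96*, the 3 genes most correlated with a called member, and markers beside a result. The members and lists were chosen with earlier results of these data known. Promoter windows came from RefSeq. The test was checked on simulated counts drawn from the real means. It recovered 96% of 4-fold but 51.5% of 2-fold changes, and 6.41% of its calls were false.

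Alternatives were DESeq2 1.42.0, RLE normalization, no low-count filter, a minimum of 10 counts per library for each gene, limma-voom (limma 3.58.1), removal of mitochondrial and ribosomal RNA genes, adjusted p alone, the replicate number as a block, offsets for GC content and length with and without the block, limma-trend on TPM with a pseudocount of 1 or 0.1, and leaving out each library. Adjusted p alone kept the main fit and dropped the fold change threshold, so a called gene stayed called. Summing *Tlr1* and *Tlr6*, and *Tlr9* ratios in normalized CPM, were added after seeing the data. The result for 1 marker gene is not reported here.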

Additional observations from a re-analysis of the deposited data

How the results depend on the processing

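*Tlr9* was called, and *Tlr2* and *Tlr4* kept their direction, in all 18 alternatives. The number of members called higher, 1 in the main test, was 3 with DESeq2, 3 without the low-count filter, 2 with GC content and length offsets, and 2 with these offsets and the replicate block. The added genes were *Tlr3* and *Tlr7* in the first 2 settings and *Tlr7* in the others, and no member was called lower in any of them. The number of receptor handling genes called, 0 in the main test, was 2 with DESeq2 (*Lgmn* and *Ctsb*) and 1 without the filter (*Lgmn*). Over all genes, the 188 higher and 52 lower calls of 11254 tested became 314 and 105 of 10952 with DESeq2. They were 610 and 262 of 21265 without the filter. With the offsets, 179 were higher and 38 lower of 11242 tested, and with offsets and block 229 and 76 of 11242. Leaving out each library gave 110 to 204 higher (0.949% to 1.76%) and 7 to 41 lower (0.0606% to 0.354%). The fewest were 112 and 7 without *Ifnar1*-/- library 1, 110 and 10 without *Ifnar1*-/- library 3, and 141 and 7 without WT library 3. There were 26 lower without WT library 1 and 25 without *Ifnar1*-/- library 2.

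Small log2 fold changes changed sign, none of them called. *Tlr1* was 0.19 and 0.20 on log2 of TPM + 1 and TPM + 0.1, and -0.22 to 0.039 when each library was left out. *Tlr5* was -0.043 and -0.061 on these TPM scales, and -0.15 to 0.38 with a library left out. *Tlr6* was -0.038 with limma-voom, -0.31 and -0.35 on the TPM scales, -0.21 to 0.19 with a library left out, and -0.034 when summed with *Tlr1*. *Tlr8* was 0.051 with the offsets, 0.040 with offsets and block, and -0.21 to 0.082 with a library left out. *Tlr13* was -0.11 to 0.072 with a library left out. The causes were not tested.

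With the replicate block, *Tlr9* had 1.61 (adjusted p = 0.00397), *Tlr7* 0.59 (0.0944), *Tlr3* 1.21 (0.0983), and *Tlr6* changed sign to -0.017, and 1 member was called. The ratio of *Tlr9* to *Tlr3* differed by 1.11 in TPM and by 0.48 in normalized CPM. Deviations of same-numbered libraries correlated by 0.0872, 0.0265, and 0.289, and WT library 1 correlated by 0.101 with *Ifnar1*-/- library 2. Number 3 thus deviated together and the other numbers hardly did, and whether same-numbered libraries came from 1 mouse was not settled by these values. Fold changes correlated with GC content over genes (Spearman rho 0.373), and genes are not independent. *Tlr9* had the highest GC content of the members, 56.2%, followed by *Tlr2* at 49.3%. With offsets for GC content and length, its log2 fold change fell from 1.63 to 1.33, and to 1.31 with the block. *Tlr3* (GC 40.0%) and *Tlr7* (41.0%) rose to 1.37 and 0.67 with the offsets. The part of GC content in these differences was not tested. Depth limits *Tlr3* and *Tlr5* most, with 19 to 98 counts per library.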

Other observations

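Mouse *Tlr11* and *Tlr12*, close relatives outside the 10 genes, encode receptors for profilin-like proteins and were at the lower limit of these libraries. *Tlr11* had 1, 2, and 3 counts in WT and 5, 6, and 3 in *Ifnar1*-/- libraries and was not tested. For *Tlr12*, WT libraries averaged 2.51 ± 1.34 and *Ifnar1*-/- libraries 1.62 ± 1.02 normalized CPM (SD, n = 3 each). The groups overlapped, and the log2 fold change was 0.60 (edgeR adjusted p = 0.650, SE 0.61).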
